A study of Mus musculus with 175 samples.

Results

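P2+ common myeloid progenitors (CMPs) of the mouse fetal liver were divided by whether their libraries held reads of Gfi1. Of the 42 P2+ CMPs used, 11 had at least 1 raw Gfi1 read and 31 had 0, out of 175 sequenced cells. The cells were selected on their raw Gfi1 reads, so Gfi1 itself is left out of every comparison. The selecting values were 6 to 123 Gfi1 reads in the 11 cells, with a median of 74. In CPM, the reads of a gene per 1000000 reads on mouse genes, the Gfi1 level of those cells was 8.39 at the lowest, 81.8 at the median and 182 at the highest. The cells nearest to the boundary had 6 and 12 Gfi1 reads, and 3 reads in a cell on the other side would have been worth between 1.95 and 7.74 CPM. All 11 cells kept a Gfi1 read in the random draw that thinned every cell to 100000 reads, and 10 did in a draw of 200000 reads.

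The study sorted single progenitors from livers at embryonic day 14.5 and sequenced each cell as a Smart-Seq2 library, a full-length method without molecular identifiers. The mice were C57BL/6 crossed with ICR and carried a Runx1 reporter allele in 1 copy, in which human CD4 is made from the proximal P2 promoter of Runx1. The genotype is written Runx1 P2-GFP::P2-hCD4/+ in one label and Runx1 P1-GFP::P2-hCD4/+ in the extraction protocol, and both groups share it. The CMPs were lineage-negative, KIT+ cells with low CD16/32 that were CD34+, CD41- and CD150+, and P2+ is the reading given here to the label CMP_high. Livers of 2 litters were pooled before the sort, so the 11 and the 31 cells come from 1 pool, each group is 1 sample and no difference has a replicate or a p-value. Intervals are 95% intervals of the read counts and cover counting error only.

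GFI1 is a zinc-finger repressor of the granulocyte and monocyte (GM) lineage and of stem cells. Its SNAG domain recruits the histone demethylase LSD1 (Kdm1a) with the CoREST proteins and histone deacetylases. GFI1B, its close paralog, works in the same manner in erythroid cells and megakaryocytes, and each of the pair is known to repress the gene of the other. Both bind DNA at sites with an AATC core.

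Promoter sequence is shown for 4 of the genes named below: Gfi1b, Treml1 and Mfsd2b, which were lower in cells with Gfi1 reads, and Evi5, which was higher. Mfsd2b was not read in any cell with Gfi1 reads, so once tested it could only be lower. Each window runs from 250 bases before to 50 bases after the gene start, 5′ to 3′ on the gene's own strand, from RefSeq on GRCm38.p6. The windows are chr2:28621933-28622232 on the minus strand for Gfi1b, chr17:48359666-48359965 on the plus strand for Treml1, chr12:4874310-4874609 on the minus strand for Mfsd2b and chr5:107868999-107869298 on the minus strand for Evi5. Capitals mark the GFI1 core AATC on either strand (AATC or GATT).
Gfi1b: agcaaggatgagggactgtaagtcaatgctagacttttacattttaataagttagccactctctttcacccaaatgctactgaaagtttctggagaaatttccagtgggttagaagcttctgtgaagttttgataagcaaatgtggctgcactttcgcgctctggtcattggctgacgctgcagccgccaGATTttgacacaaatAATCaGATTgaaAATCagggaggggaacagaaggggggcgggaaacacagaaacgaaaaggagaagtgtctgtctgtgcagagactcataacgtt
Treml1: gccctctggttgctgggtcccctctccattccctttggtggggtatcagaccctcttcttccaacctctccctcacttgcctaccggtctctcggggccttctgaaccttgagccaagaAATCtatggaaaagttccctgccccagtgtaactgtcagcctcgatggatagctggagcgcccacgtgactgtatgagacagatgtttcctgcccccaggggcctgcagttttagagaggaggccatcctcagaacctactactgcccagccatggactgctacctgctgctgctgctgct
Mfsd2b: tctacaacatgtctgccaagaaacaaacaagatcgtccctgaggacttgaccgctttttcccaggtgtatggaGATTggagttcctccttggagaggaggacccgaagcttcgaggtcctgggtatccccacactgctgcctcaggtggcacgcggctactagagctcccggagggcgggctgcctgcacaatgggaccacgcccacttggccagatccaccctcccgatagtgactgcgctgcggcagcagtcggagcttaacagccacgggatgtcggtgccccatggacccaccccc
Evi5: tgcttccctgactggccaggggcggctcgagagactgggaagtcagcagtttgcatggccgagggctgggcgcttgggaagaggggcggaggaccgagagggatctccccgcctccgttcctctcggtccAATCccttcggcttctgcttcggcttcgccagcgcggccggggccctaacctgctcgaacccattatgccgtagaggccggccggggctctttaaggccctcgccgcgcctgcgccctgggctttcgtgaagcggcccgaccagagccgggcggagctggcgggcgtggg
The Gfi1b window held 4 cores, all between 60 and 30 bases before the start, and the other windows held 1 core each. Among all 32851 windows of this length 73.1% held at least 1 core and 10.1% held at least 4. The GATA core (GATA or TATC), which can share letters with the GFI1 core, was found 2 times in the Treml1 window, 2 times in the Mfsd2b window, 1 time in the Gfi1b window and not in the Evi5 window, against 57.9% of all windows with at least 1. A match is a description of the letters and no evidence of binding.

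Depth and quality were close between the groups. Reads on mouse genes had a median of 864298 (590194 to 1248989) in cells with Gfi1 reads and of 796860 (387473 to 1540631) in cells without. The number of genes detected at 100000 reads had a median of 5765 (5232 to 6725) against 5921 (5247 to 6942). Xist without Y-linked reads was found in 5 of 11 against 18 of 31 cells, and the reverse in 5 against 13. Fewer cells that transcribe a gene and less RNA per cell cannot be told apart in a summed level.

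A gene was called when its summed CPM differed at least 2-fold, also without the highest cell of the higher group. Genes were tested where they averaged 1 read or more per cell and had a read in at least 25% of the cells. Of these 9138 genes, 203 were called higher (2.22%) and 629 lower (6.88%) in cells with Gfi1 reads. The median log2 ratio over all tested genes was -0.02. A gene read in cells of the 11-cell group alone had to be read in all of them to be tested. The highest cell left out is also 1 of 11 for a higher call but 1 of 31 for a lower one. The numbers of higher and lower calls are therefore not directly comparable. Where few cells of a group held a gene, 1 cell could set the size of its ratio. For some of these genes the ratio without the highest cell of each group is given too. That ratio leaves out a larger part of the 11 cells than of the others. Called genes were also read in fewer cells than genes at large, in a median of 19 cells for higher and 18 for lower calls against 29 for all tested genes.

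The same division was made in the P2- CMPs (label CMP_low), of which 5 of 27 had Gfi1 reads, with 9, 29, 85, 86 and 182 reads. In these P2- CMPs Xist without Y-linked reads was found in 4 of 5 cells with and 10 of 22 without Gfi1 reads. The reverse was found in 0 and 8 of them, and both in 0 and 2. There 4.65% of 8818 tested genes were called higher and 14.3% lower, and the median log2 ratio was -0.05. Every count of calls given below is to be read against these shares and those of the P2+ CMPs. Of the 22 cells without Gfi1 reads 1 has MEP as its subtype label but CMP_low as its title and sort label, by which it was grouped. Without it 4.75% and 13.9% were called, and of the listed genes Rara, Phf21a, Tcf4 and Fosb lost a lower and Esam a higher call there. Gfi1 was read in 0 of 56 P2- and 0 of 47 P2+ megakaryocyte-erythroid progenitors (MEPs). The intervals of these shares of cells reached up to 6.375% in the P2- and 7.549% in the P2+ MEPs. A gene read in the 5 P2- CMPs with Gfi1 reads alone could not pass the filter. A tested gene at 0 in all 5 could only be lower, and its call supports nothing. Values of the P2- CMPs are set beside those of the P2+ CMPs below. The cells are different but the pool of livers is the same, and whether the 2 populations differ was not tested.

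The markers of GM differentiation that go with the name of the division did not separate the groups of P2+ CMPs. Mpo, the myeloperoxidase of granule precursors, had 43.97 CPM at the lowest, 297.1 at the median and 1368 at the highest in cells with Gfi1 reads, and 0, 292.6 and 1303 CPM in cells without. The 2 ranges overlapped almost completely, and the pooled levels were 518 and 398 CPM (log2 ratio 0.38, interval 0.33 to 0.43), short of the fold. Cebpa, the CCAAT factor that starts GM commitment, was read in 1 cell of each group, with 1 and 11 reads in all. Since these markers did not set the P2+ groups apart, the cells are called by their Gfi1 reads alone. Mpo had 334.4 against 188.1 CPM in the P2- CMPs (log2 ratio 0.83, interval 0.73 to 0.93), also not called.

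Of the 19 listed GM granule and secretory genes, 9 were tested and 0 were called in either direction, against 2.22% higher and 6.88% lower of all tested genes. Their median log2 ratio was 0.38 with all cells and -0.07 without the highest cell of each group. Prtn3, proteinase 3, had pooled levels of 113 and 82.4 CPM, and Lyz2, lysozyme, of 143 and 136 CPM. Elane, neutrophil elastase, was at 0 in all 11 cells and had 23 reads in the others, and Ctsg, cathepsin G, had 3 reads and 0. Of the same list 7 genes were tested in the P2- CMPs, with a median of 0.83, 0 higher calls and 2 lower, Cst7 (0 against 30.6 CPM) and Calr (316.7 against 763 CPM). Cst7 was at 0 in every P2- CMP with Gfi1 reads, so once tested it could only be lower. Prtn3, with 122 against 53.8 CPM, Lyz2, with 232.5 against 104.4 CPM, and Ctsc, with 194.8 against 87.7 CPM, were past 2-fold there with all cells but not without the highest cell.

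The GM transcription factors gave 0 higher and 2 lower calls of 9 tested (median -0.05), against 2.22% and 6.88% of all tested genes. Spi1, which encodes PU.1, had 5.87, 111 and 224.5 CPM (lowest, median, highest) with Gfi1 reads and 0, 113 and 440 CPM without. The Spi1 medians were nearly equal and the ranges overlapped. The 2 lower genes were Cebpd, at 4.95 against 12.3 CPM (log2 ratio -1.31, and -2.04 without the highest cell of each group), and Zeb2, a zinc-finger factor of myeloid differentiation, at 37.5 against 85.5 CPM. Zeb2 had 156 against 75.8 CPM in the P2- CMPs, the other direction, and 15% of the exon bases of Cebpd overlap another gene. Irf8, the monocyte and dendritic factor, had 27.8 and 22.1 CPM and was not called. The median of the 7 factors tested in the P2- CMPs was 0.71, with 0 higher calls and 1 lower, Rara (0.563 against 15.97 CPM). Spi1 had 196.8 against 99.0 CPM there and was not called.

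Of the GM surface receptors, 0 of 9 tested were called (median 0.20), against 2.22% higher and 6.88% lower of all tested genes. Emb, embigin, was read in 10 of 11 cells with Gfi1 reads and in 11 of 31 without. Its level was 0, 94.5 and 331.8 CPM (lowest, median, highest) against 0, 0 and 376.3 CPM. Most cells with Gfi1 reads were high for Emb and most cells without were at 0, but the ranges overlapped and the fold of 2.14 did not hold when the highest cell was taken from the group with Gfi1 reads alone. Without the highest cell of each group the log2 ratio was 1.30, against 1.10 with all cells. In the 5 P2- CMPs with Gfi1 reads Emb was at 32.6, 50.6, 285.1, 306.7 and 316.8 CPM, and it was read in 4 of 22 cells without, a call there. Csf3r, the G-CSF receptor, had 38.2 and 50.7 CPM, and Flt3, the FLT3 ligand receptor, 68.6 and 35.9 CPM, neither called. The log2 ratio of Flt3 was 0.93 with all cells but 0.09 without the highest cell of each group. Among P2- CMPs 4.65% of all tested genes were called higher and 14.3% lower. Of the 8 receptors tested there 3 were called higher and 0 lower, with a median of 1.43. Besides Emb they were Csf3r, at 73.2 against 21.5 CPM, and Cd53, a tetraspanin of leukocytes, at 67.3 against 10.2 CPM. Both had P2+ log2 ratios below 0 (-0.41 and -0.39), the other direction.

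Gfi1b, the paralog, was lower in cells with Gfi1 reads. It was read in 6 of 11 cells against 23 of 31, with a lowest, median and highest level of 0, 1.64 and 97.4 CPM against 0, 105 and 531 CPM. The ranges overlapped, but the highest cell with Gfi1 reads lay below the median of the cells without. Pooled levels were 23.9 and 120 CPM, 5.0-fold lower (log2 ratio -2.32, interval -2.52 to -2.13), and the log2 ratio was -2.97 without the highest cell of each group. In the P2- CMPs with Gfi1 reads Gfi1b was at 0 in 3 cells and at 3.52 and 134 CPM in the others, and the pooled levels were 24.5 against 96.6 CPM, also a lower call. The gene lies at chr2:28609450-28621982 on the minus strand, and its promoter window is the one with 4 AATC cores.

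The partners that GFI1 and GFI1B recruit gave 1 higher and 1 lower call of 11 tested, and the lower one was Gfi1b itself, which is on that list. Of all tested genes 2.22% were called higher and 6.88% lower. Kdm1a had 86.1 and 79.0 CPM, Hdac1 172 and 136 CPM, and Rcor1 48.3 and 71.3 CPM, none of them called. Phf21a, a reader of unmethylated histone H3 in the CoREST complex, was called higher at 58.0 against 14.1 CPM (log2 ratio 2.04, interval 1.85 to 2.23) and was read in 9 of 11 against 16 of 31 cells. In the P2- CMPs it had 14.9 against 34.9 CPM, a lower call that was lost (32.7 CPM) without the cell also labelled MEP. Of 10 partners tested there 0 were called higher and 2 lower, Gfi1b and Phf21a (median -0.28).

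Of 11 genes described as repressed by GFI1, 7 were tested, 0 were called higher and 1 lower, which was Gfi1b again (median -0.19). Hoxa9 and Meis1, homeodomain factors of stem cells and progenitors, had 104 and 119 CPM and 185 and 150 CPM, neither called. Cdkn1a, the cell cycle inhibitor p21, had 14.5 and 34.1 CPM and was not called, Egr1 had 124 and 187 CPM, and Id2 had 42.6 and 21.2 CPM. Of the list 5 were tested in the P2- CMPs, with a median of -0.62, 0 higher calls and 2 lower, Gfi1b and Egr1 (47.3 against 126.5 CPM).

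Among transcription factors of the erythroid and megakaryocytic lineages, picked here from several lists, Gata1, Gata2, Tal1 and Zfpm1 were called lower. Fli1, Nfe2 and Runx1 were not called, and no count is drawn from this selection. Gata1, the master regulator of both lineages, was read in 4 of 11 against 15 of 31 cells. Its level was 0, 0 and 65.6 CPM (lowest, median, highest) against 0, 0 and 280 CPM, so that more than 50% of either group was at 0 and the difference lay in the upper cells. Pooled, it was 5.62-fold lower (10.0 against 56.2 CPM, log2 ratio -2.49, interval -2.80 to -2.20), and 9.85 against 125 CPM in the P2- CMPs. The size rests on few cells, since 1 of the 11 held 67 of their 99 Gata1 reads and the log2 ratio was -3.66 without the highest cell of each group.

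Gata2, the GATA factor of stem and early progenitor cells, had 0, 34.3 and 163 CPM (lowest, median, highest) with Gfi1 reads and 0, 105 and 410 CPM without. The ranges overlapped and the pooled levels were 52.6 and 120 CPM (log2 ratio -1.19, interval -1.33 to -1.06). Tal1, the basic helix-loop-helix partner of the GATA factors, had 24.3 against 57.6 CPM, and Zfpm1, which encodes the cofactor FOG1, 30.3 against 73.3 CPM. Gata2, Tal1 and Zfpm1 were also called lower in the P2- CMPs, at 33.2 against 208.02, 18.9 against 88.0 and 21.96 against 132 CPM. Of the factors that were not called, Fli1 had 90.4 and 90.8 CPM, Nfe2 189 and 186 CPM, and Runx1 176 and 148 CPM. Fli1 was called higher in the P2- CMPs, at 243.8 against 72.9 CPM.

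Erythroid genes gave 1 higher and 3 lower calls of 9 tested (median -0.00), against 2.22% and 6.88% of all tested genes. Besides Gata1 and Zfpm1 the lower one was Epor, the erythropoietin receptor, at 7.98 against 28.3 CPM, read in 2 of 11 against 12 of 31 cells (log2 ratio -1.83, and -3.34 without the highest cell of each group). Of all genes tested in the P2- CMPs 4.65% were called higher and 14.3% lower. Of the 12 erythroid genes tested there 6 were called lower and 0 higher, with a median of -1.83. The 6 lower genes were Gata1, Zfpm1, Klf1, the erythroid Kruppel-like factor (0 against 108.4 CPM, read in 0 of 5 against 14 of 22 cells), Cited4, Smim1 and Mt1. Klf1, at 0 in all 5 cells, could only be lower once tested. In the P2+ CMPs Klf1 was at 0 against 6.31 CPM and was not called, and Epor, called there, had 50.95 and 49.99 CPM in the P2- CMPs. Car2, carbonic anhydrase, was at 250 CPM in both groups. Hbb-bt, an adult beta-globin, was called higher, at 19.6, 175 and 639 CPM (lowest, median, highest) against 0, 46.0 and 512 CPM. Its counts are uncertain because a near-identical copy shares its reads.

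Megakaryocytic genes gave 0 higher and 4 lower calls of 13 tested (median -0.58), and 10 of the 13 had log2 ratios below 0. Of all tested genes 6.88% were called lower and 4699 of 9138 had ratios below 0. Of the 4 lower genes Gp1ba was at 0 in all 11 cells with Gfi1 reads, so once tested it could only be lower. Gp5 had reads in 1 of the 11 cells. Both are part of these counts and of the median. Plek, pleckstrin, the kinase C substrate of platelets, had 0, 0 and 95.3 CPM (lowest, median, highest) with Gfi1 reads against 0, 54.2 and 423 CPM without, and was read in 4 of 11 against 25 of 31 cells. Treml1, a receptor of platelet granules, had 0, 0 and 88.1 CPM against 0, 41.4 and 265.6 CPM, and was read in 3 against 19 cells. For both genes most cells with Gfi1 reads were at 0 and most cells without were not. Pooled, Plek was 4.63-fold lower (log2 ratio -2.21, interval -2.43 to -2.00) and Treml1 7.02-fold lower (-2.81, interval -3.13 to -2.51). Neither size is well fixed. The cell with the fewest Gfi1 reads, 6, held 63 of the 93 Treml1 reads of the 11 cells, and without it the log2 ratio of Treml1 was -4.34. Without the highest cell of each group it was -4.25 for Treml1 and -3.18 for Plek.

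The remaining 2 calls were subunits of the receptor for von Willebrand factor. Gp1ba was at 0 in all 11 cells and read in 12 of 31, at least 52.6-fold lower when the 11 cells are set to 3 reads together. It passed the filter through the 31 cells without Gfi1 reads alone, so a tested gene of this kind had to be lower and its call supports nothing. Gp5 had 3 reads in 1 cell against 470 reads in 11 cells (log2 ratio -5.87, interval -8.16 to -4.32), and its 11 cells without Gfi1 reads were enough to pass the filter too. Plek, Treml1 and Gp5 were also called lower in the P2- CMPs. Treml1 and Gp5 were at 0 in all 5 cells with Gfi1 reads there, so these 2 calls could only be lower and support nothing. Itga2b, which encodes the CD41 used in the sort, had 27.2 and 43.6 CPM and was not called, but was called lower in the P2- CMPs (3.94 against 38.8 CPM). The P2- list as a whole was split, with 4 lower calls and 1 higher, Fli1, of 12 tested and a median of 0.40, above 0 where the P2+ median was below it. Gp9, another subunit of the same receptor, had 23.2 against 45.7 CPM in the P2+ and 58.6 against 32.4 CPM in the P2- CMPs, neither a call.

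**Figure D1:**
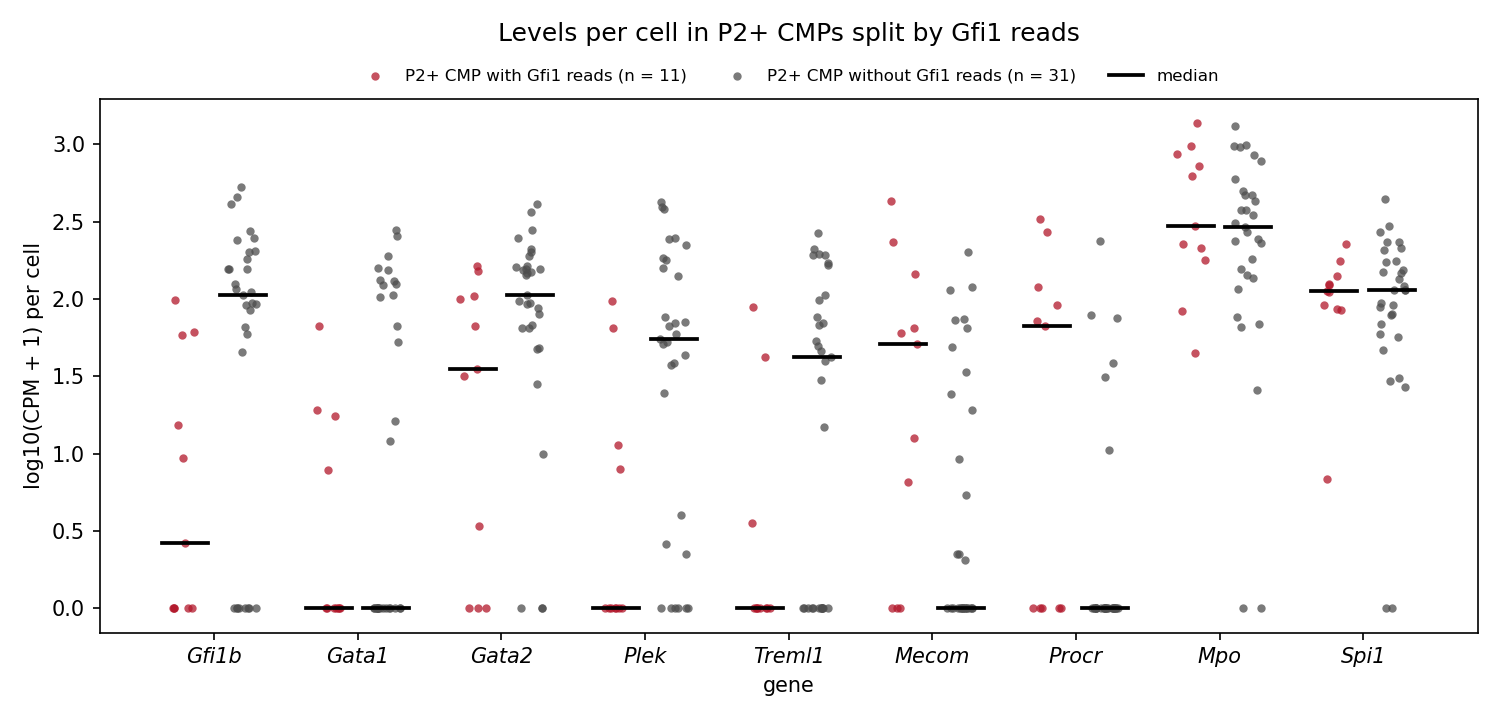
Level of 9 genes in each P2+ CMP, as log10(CPM + 1), for the 11 cells with Gfi1 reads and the 31 cells without; each point is 1 cell and each bar a group median. For Gfi1b, Plek and Treml1 the medians differ with most red points low, while the medians of Mpo (297.1 and 292.6 CPM) and Spi1 (111 and 113 CPM) lie at the same height.

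Of the 9138 tested genes 17 were at 0 in all 11 cells with Gfi1 reads (0.186%). These 17 passed the filter through the 31 cells without Gfi1 reads alone, and the reverse pattern would have needed reads in every one of the 11 cells, so nothing is read from its count of 0. Mfsd2b, the exporter of sphingosine-1-phosphate from red cells and platelets, had the lowest ratio of the named genes. It was read in 17 of 31 cells without Gfi1 reads (median 12.9, highest 447 CPM, 1937 reads in all) and in 0 of 11 with, at least 241.5-fold lower. Smim5, a small membrane protein, was read in 17 of 31 cells (median 7.74, highest 291.99 CPM) and in 0 of 11, at least 146-fold lower.

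Tuba8, an alpha-tubulin, was read in 14 of 31 and 0 of 11 cells, at least 116-fold lower, although 16.3% of its exon bases overlap another gene. Mfsd2b, Smim5 and Tuba8 were also at 0 in all 5 P2- CMPs with Gfi1 reads and had 129, 69.9 and 31.3 CPM in the other P2- CMPs. Of the 17 genes 12 could be tested in the P2- CMPs too, and the other 9 of these had reads there in cells with Gfi1 reads. The 3 of 12 are 25%, against 2.07% of all genes tested in both, but since the 12 passed the filter through the cells without Gfi1 reads alone nothing is read from the share. The cells without Gfi1 reads that were also at 0 for these genes overlapped with the other group at 0.

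The other genes of the 15 lowest were ranked by the ratio without the highest cell of each group, and the pooled log2 ratios of Pla2g15 (-1.34), Smg8 (-1.57), Tmub2 (-1.71) and Gab2 (-1.73) lay closer to 0 than those of Gfi1b, Gata1 and Treml1. They were a mixed set, each read in 1 or 2 of the 11 cells and in 10 to 20 of the 31. In each, 1 cell held every read of the group with Gfi1 reads, except for 1 read of Tmub2, 1 of Tnfsf14 and 3 of Tpst1 in another, so that their pooled levels in that group rest on 1 cell. Without that cell Ubash3a and Slc14a1, for example, had 0 reads left in the group, so the sizes of their pooled ratios are not well fixed. Slc14a1, the urea transporter of red cells, had 5.76 against 56.7 CPM, and was at 0 against 43.0 CPM in the P2- CMPs. Tnfsf14, a cytokine of the tumour necrosis factor family also known as LIGHT, had 5.05 against 40.3 CPM. Gab2, an adaptor of cytokine receptors, had 11.3 against 37.5 CPM, and Ubash3a, a suppressor of T cell receptor signalling, 4.75 against 30.997 CPM. Of these, Slc14a1 and Ubash3a were also lower in the P2- CMPs.

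Tmub2 (12.6 against 41.2 CPM) and Pla2g15, a lysosomal phospholipase (11.2 against 28.4 CPM), were called higher in the P2- CMPs, the opposite direction. Ankle1, an endonuclease, Tpst1, a tyrosine sulfotransferase, Cbwd1, Prdm15 and Smg8, a factor of nonsense-mediated decay, were lower in the P2+ CMPs and not called in the P2- CMPs.

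Stem and multipotent genes gave 2 higher and 2 lower calls of 23 tested (median 0.28), and 16 of the 23 had log2 ratios above 0. Of all tested genes 2.22% were called higher, 6.88% lower, and 4439 of 9138 had ratios above 0. The lower calls of the list were Gata2 and Tal1. Mecom, the zinc-finger factor EVI1 of stem cells, had 0, 50.3 and 431 CPM (lowest, median, highest) with Gfi1 reads against 0, 0 and 201 CPM without. It was read in 8 of 11 against 15 of 31 cells, and its pooled level was 3.35-fold higher (log2 ratio 1.74, interval 1.60 to 1.89). Procr, the endothelial protein C receptor that marks stem cells, had 0, 65.6 and 327.8 CPM against 0, 0 and 234.3 CPM and was read in 6 of 11 against 6 of 31 cells. The Procr ranges overlapped, and the pooled level was 5.54-fold higher (log2 ratio 2.47, interval 2.30 to 2.65).

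Mecom had 79.4 and 40.4 CPM in the P2- CMPs, and Procr 23.6 and 33.1 CPM, neither called. Of 23 stem and multipotent genes tested there 5 were called higher, Hlf, Mycn, Erg, Fgd5 and Esam, and 3 lower, Gata2, Tal1 and Slamf1 (median 0.41). Of all genes tested in the P2- CMPs 4.65% were called higher and 14.3% lower. Of the genes of the sort, Cd34 had 741 and 466 CPM and Kit, the stem cell factor receptor, 373.5 and 216.6 CPM. Cd27, a receptor of the tumour necrosis factor receptor family on multipotent progenitors, was read in 10 of 11 against 18 of 31 cells (136 and 64.7 CPM), and Hlf, a bZIP factor of stem cells, in 9 against 18 (87.7 and 48.3 CPM). In the P2+ CMPs the ratios of Cd34, Kit, Cd27 and Hlf lay above 0 but none was called.

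The 15 highest genes, ranked without the highest cell of each group, included Prdm16, the relative of Mecom that also acts in stem cells. It was read in 7 of 11 against 5 of 31 cells, with 0, 34.7 and 75.5 CPM (lowest, median, highest) against 0, 0 and 53.9 CPM (log2 ratio 3.59, interval 3.22 to 3.98), and the log2 ratio was 4.49 without the highest cell of each group. Prdm16 was nearly absent in the P2- CMPs, at 1.69 and 0.879 CPM. Lrp5, a co-receptor for Wnt, had 34.0 against 3.02 CPM and was read in 9 of 11 against 13 of 31 cells, but was lower in the P2- CMPs (1.41 against 6.76 CPM). H19, an imprinted non-coding RNA, had 79.0 against 7.30 CPM, with the highest cell at 498 CPM.

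Evi5, a GTPase-activating protein of the RAB cycle and the protein-coding gene next to Gfi1, was the only one of the 15 highest that was also called higher in the P2- CMPs. It was read in 5 of 11 against 6 of 31 cells, with the highest cell at 214.8 against 68.6 CPM and a pooled ratio of 42.0 to 6.54 CPM (log2 ratio 2.68, interval 2.43 to 2.95). In the P2- CMPs with Gfi1 reads it was at 0 in 2 cells and at 124, 178 and 198 CPM in 3, against a pooled 7.10 CPM in the cells without. The others of the 15 were Procr, given above, Fosl2 (an AP-1 subunit), Pick1 (a PDZ scaffold), Slc25a40 (a mitochondrial carrier), Stx3 (a syntaxin), Pdp1 (a pyruvate dehydrogenase phosphatase), Arid5a (an RNA-binding protein), Clcn5 (a chloride exchanger), P2rx4 (an ATP-gated channel), Pam (a peptide-amidating enzyme) and Bbs5 (a BBSome subunit). Pick1, 18.6% of whose exon bases overlap another gene, was at 0 in the 5 P2- CMPs with Gfi1 reads and at 27.1 CPM in the others.

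**Figure D2:**
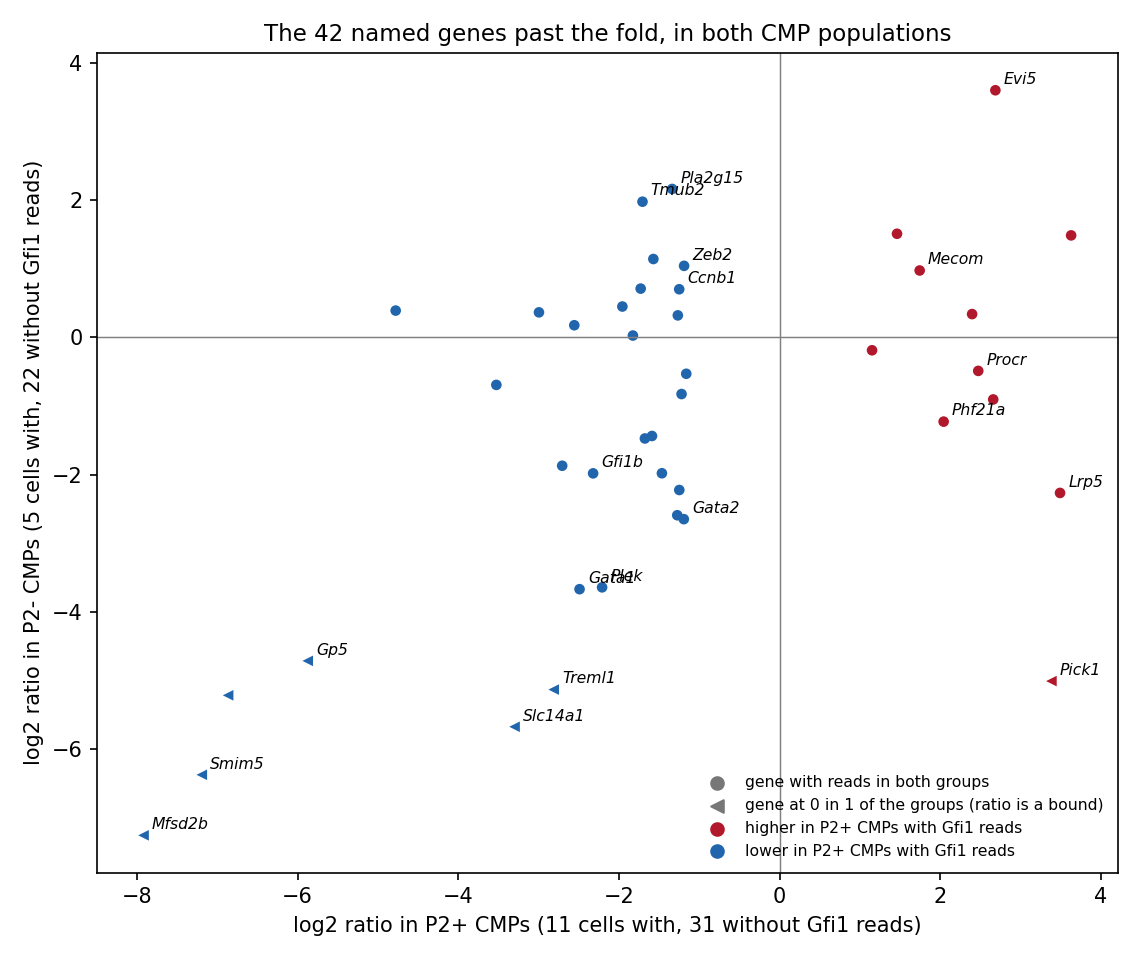
Log2 ratio of pooled CPM, cells with over cells without Gfi1 reads, in P2+ CMPs (x axis) and in P2- CMPs (y axis), for the 42 named genes called in P2+ CMPs and tested in both; triangles are bounds. Of 31 lower genes 19 lie below 0 on both axes, and of 11 higher genes 5 lie above 0 on both.

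Over all calls, 163 higher and 536 lower genes could be tested in both populations. Of the 163, 27 were called higher in the P2- CMPs too (16.6%, against 4.55% of all genes tested in both), which is 7.05% of the higher calls there. Of the 536, 140 were also called lower (26.1%, against 13.6%), which is 12.3% of the lower calls there. The P2- ratio had the same sign for 64.4% of the higher and 53.7% of the lower genes, against 48.0% and 52.0% of all genes. Called genes of the P2+ CMPs were read in fewer cells than genes at large, and the part of sparse reading in these shares was not tested.

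Mitosis genes were at lower pooled levels in cells with Gfi1 reads. Of 16 listed, 16 had log2 ratios below 0 (4699 of all 9138), with a median of -0.67, and 3 were called lower (6.88% of all): Ccnb1, cyclin B1 (68.8 against 164 CPM), Cdc20, the activator of the anaphase complex (98.4 against 220 CPM), and Plk1, the polo kinase (45.5 against 106 CPM). Their summed level per cell was 273.7, 1272 and 6210 CPM (lowest, median, highest) against 250, 2852 and 9332 CPM, which overlapped widely. Mki67 had 170 and 353.5 CPM and was not called. In the P2- CMPs 0 of the 16 were called and the median was 0.07.

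DNA replication genes gave 0 higher and 1 lower call of 15 tested (median 0.17), against 2.22% and 6.88% of all tested genes. Mcm6, a subunit of the replicative helicase, had 754 and 590 CPM and Pcna, the sliding clamp, 444 and 465 CPM. The lower call was Ccne1, cyclin E1, at 32.0 against 88.5 CPM, and it was also lower in the P2- CMPs (23.4 against 92.1 CPM). There 1 gene of 15 was called higher, Cdc6 (184.95 against 48.3 CPM), and the median was 0.26. Among the immediate early and stress genes, which handling can raise, 1 of 12 was called lower, Fosb, at 7.28 against 21.9 CPM (log2 ratio -1.59, and -2.64 without the highest cell of each group), and Fos had 442 and 395 CPM. Of the same 12 genes 4 were called lower in the P2- CMPs, Fosb, Jun, Egr1 and Nr4a1, and the median was -0.23. Of all genes tested in the P2- CMPs 14.3% were called lower. The part of the mitosis and stress genes in the other differences was not tested.

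Hepatocyte and macrophage markers were near 0 in both groups, while dendritic and endothelial lists held reads in most cells. Of the hepatocyte list, Alb, Apoa2 and Ttr were at 0 in all 42 cells and the summed level was 0 to 75.4 CPM with and 0 to 84.5 CPM without Gfi1 reads. The macrophage list summed to 0 to 15.4 against 0 to 68.5 CPM, with Adgre1 and C1qa at 0. The mast cell, basophil and eosinophil list had 0 of 13 genes tested and summed to 0 to 566 against 0 to 373.2 CPM, with a median of 0 in both. The dendritic list had 2 of 10 tested and 0 called, at 0 to 392 against 35.97 to 371.9 CPM, and the endothelial list 4 of 8 tested and 0 called, at 59.2 to 876 (median 365.9) against 45.2 to 1844 CPM (median 287.6). Among P2- CMPs 2 of 4 endothelial genes were called higher, Emcn (75.4 against 13.7 CPM) and Egfl7 (463.1 against 135.3 CPM). Both dendritic genes tested there, Bst2 and Tcf4, were called lower, and so were both mast cell genes tested, Cpa3 and Il1rl1. Of all genes tested in the P2- CMPs 4.65% were called higher and 14.3% lower.

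Of all tested genes 2.22% were called higher and 4439 of 9138 had ratios above 0. Of 17 lymphoid genes 4 were tested, all with log2 ratios above 0, and 1 was called higher. This was Cd79b, a signalling chain of the B cell receptor, read in 9 of 11 against 19 of 31 cells (141 against 63.4 CPM). The list summed to 139 to 448 CPM with and 0 to 471 CPM without Gfi1 reads. Its defining members Cd3e, Rag1 and Pax5 were at 0 in all 42 cells. Of 4 tested in the P2- CMPs 1 was called higher, Satb1 (37.4 against 3.25 CPM), and not Cd79b.

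Cells were also counted by how many of the 4 lower genes Gfi1b, Gata1, Plek and Treml1 they had reads of, a choice of genes made after their values were seen. A cell of either group had reads of 0 to 4 of these genes, with a median of 2 in cells with Gfi1 reads and of 3 in cells without. At least 3 of the 4 were read in 1 of 11 against 17 of 31 cells, and all 4 in 1 of 11 against 14 of 31. The cells without Gfi1 reads were mixed, 14 with reads of at most 2 of the 4 genes and 14 with all of them. In the P2- CMPs at least 3 were read in 0 of 5 against 15 of 22 cells.

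**Figure D3:**
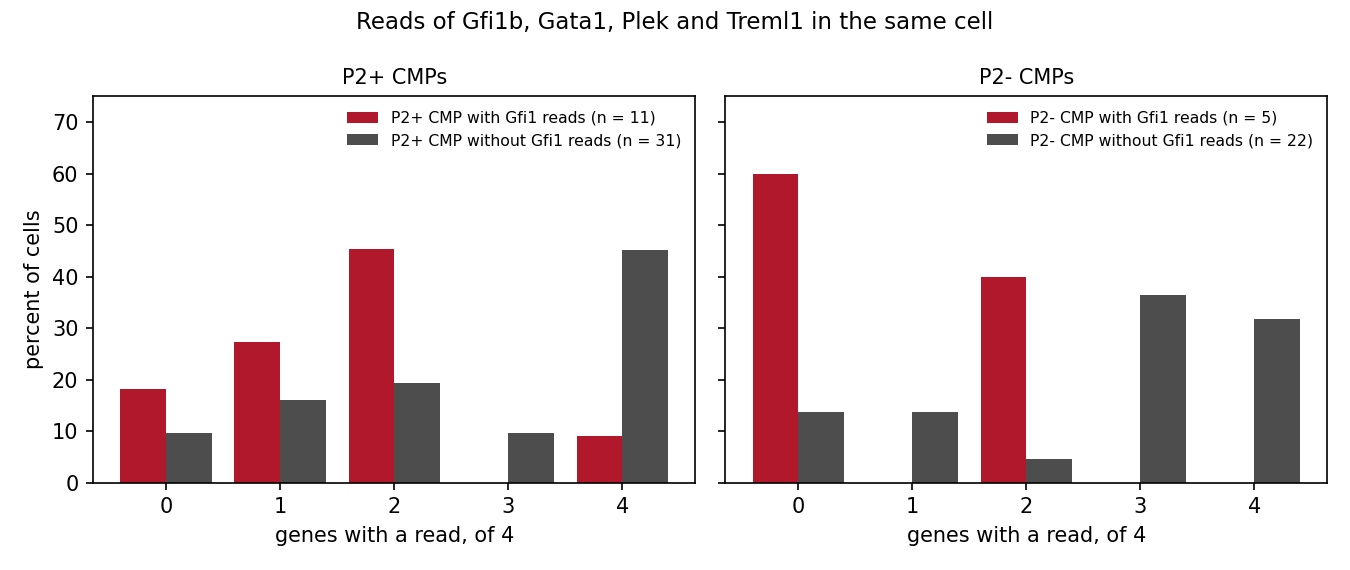
Percent of cells by the number of the 4 genes Gfi1b, Gata1, Plek and Treml1 that had a read, in P2+ CMPs (left) and P2- CMPs (right), for cells with (red) and without (grey) Gfi1 reads. The bar at 4 genes holds 14 of 31 P2+ CMPs without Gfi1 reads and 1 of 11 with them.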

How the data were processed

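Single cells were sequenced as paired reads. Per the labels and the methods of the study, the authors trimmed reads with Trimmomatic 0.36, aligned them with STAR 2.4.2a to GRCm38 and the ERCC spike-ins and counted them with HTSeq 0.6.1p1 on exons, ignoring strand. The authors deposited these counts as raw values, and the deposited percent of unmapped reads is relative to all reads of a cell. In the P2+ CMPs 26.2% of uniquely mapped reads were ambiguous between genes and left uncounted, which lowers genes that overlap others on the genome. Reads that map to several places are not part of this share.

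Of 43 P2+ CMPs, 1 with 765 reads on mouse genes and 99.8% of its counted reads on ERCC features was left out. Counts were summed per group and divided by summed reads on mouse genes (9896442 with and 26454591 without Gfi1 reads). A group at 0 reads was set to 3. Ratio intervals are exact conditional binomial intervals. No test was run, since cells of 1 pool are not replicates. The named genes were those of 18 lists and, among called genes read in at least 25% of the higher group after thinning and at 10 CPM or more, the 15 highest and 15 lowest ratios without the highest cells, with fewer than 3 reads set to 3. Some genes are not reported here and were taken out of the lists and named genes. The cells, lists and rules were chosen with earlier results of these data known. The calling was tested on simulated counts. DESeq2 1.42.0 gave size factors for an alternative only, with Python 3.11.15 and R 4.3.3 for the rest. Gene coordinates are those of GRCm38.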

Additional observations from a re-analysis of the deposited data

How the results depend on the processing

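The numbers of called genes depended most on the rule. Against 2.22% of tested genes higher and 6.88% lower, taking both groups without their highest cell gave 4.41% and 19.1%, no filter but 10 summed reads gave 6.01% and 20.2%, a fold of 1.5 gave 6.34% and 14.0%, and a fold of 3 gave 0.481% and 3.21%. Summed reads alone gave 6.33% higher and 9.72% lower. A read in 25% of the cells of either group, a filter chosen after seeing the data, gave 3.58% and 7.62%. Lower calls outnumbered higher calls under each of these. Equal weight per cell, DESeq2 size factors, a minimum of 10 Gfi1 reads, the left-out cell kept, a total without mitochondrial genes and Rn18s-rs5, and thinning changed either number of genes by less than 1.5 times, but after thinning only 50.2% of the higher and 56.1% of the lower genes were called again. The 11 list medians stayed within their intervals under the 8 alternatives run on them. Without the highest cell of each group, which takes 1 of 11 and 1 of 31 cells, all 11 medians lay lower. The GM granule median was then -0.07 instead of 0.38, and the mitosis median -1.08 instead of -0.67. None of the 53 called genes that are named changed direction under these 8, and Cebpd, Cd79b, Fosb and Pla2g15 came under the 2-fold limit in at least 1. These genes were called in the same cells, with and without the highest cell, so their kept direction is no further support. Dividing the cells by a Gfi1 read at 100000 reads, 1 of the 8, gave the same 2 groups. Gfi1 was read in 11 P2+ CMPs at 50000 and 100000 reads and without thinning but in 10 at 200000 reads, each depth being 1 random draw, so cells with few Gfi1 reads can be lost by thinning at any depth. Leaving out the P2- CMP that 1 label calls an MEP, also chosen after seeing the data, changed the P2- call of 5 of the named genes. No paired analysis was possible because each cell number occurs once and all cells came from 1 pool.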

Other observations

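The genes around Gfi1 were looked at after the values of Evi5 were seen. Gfi1 lies at chr5:107716657-107726036 on the minus strand (GRCm38, GENCODE), and 16 protein-coding genes start within 500 kb of its start, of which 9 were tested in the P2+ CMPs. Evi5, whose GENCODE start lies 149 kb away, was called higher (42.0 against 6.54 CPM). The RefSeq start used for its promoter window above is a different one and lies closer to Gfi1. Rpl5, a ribosomal protein gene 174 kb away on the same side, had 768 and 784 CPM, and Mtf2, a Polycomb-associated protein, 188 and 142 CPM, neither called. Rpap2 (11.6 against 27.97 CPM), Fam69a (21.1 against 46.8 CPM) and Ccdc18 (6.27 against 20.03 CPM) were called lower, and 33.0% of the Fam69a exon bases overlap Rpl5. These 3 were read in 1, 2 and 3 of the 11 cells, so their levels there rest on few cells. Of all tested genes 2.22% were called higher and 6.88% lower. Glmn (19.7 and 14.5 CPM) and Tmed5 (104 and 64.4 CPM) were not called. Tgfbr3, a co-receptor for TGF-beta, had 80.1 and 46.1 CPM in the P2+ CMPs and 27.9 and 61.6 CPM in the P2- CMPs, and was not called in the former. The 3 Gfi1 neighbours called lower had P2- levels of 35.8 against 28.6 CPM for Rpap2, 0 against 21.99 CPM for Fam69a and 6.76 against 18.7 CPM for Ccdc18.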
